A study of Homo sapiens with 14 samples.

Results

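The genes described here are 8 genes of gut-like and liver-like epithelium that are measured in a prostate cancer cell line: the trypsin inhibitor SPINK1, the nuclear receptors HNF4A and HNF4G, and VIL1, KIF12, MUC13, TSPAN1 and SLC26A3. They were taken by symbol, or by NCBI gene number where a table had no symbols, as 8 of the 27819 genes shared by 4 tables of RNA-seq counts. They were chosen by their measured counts with each inhibitor against DMSO, with those responses already known. Their changes against DMSO are therefore given as a description with standard errors and without a test, and nothing is concluded from how many of them changed. Tests are reported for other genes of the same lineages and families. The lists of those genes were also drawn up with earlier results of these data known.

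RNA was sequenced from CWR22RV1 cells, an androgen receptor positive human prostate cancer line grown from a xenograft, after 72 h of treatment. Vehicle (DMSO) gave 3 libraries, Fucotrim I at 30 μM gave 3, Fucotrim II at 60 μM gave 2, SGN-2FF at 100 μM gave 3 and P-SiaFNEtoc at 2 μM gave 3, all from 1 cell line, and the same DMSO libraries are the control of every inhibitor. Fucotrim I and Fucotrim II are rhamnose 1-phosphate derivatives aimed at the enzyme GMDS of GDP-fucose synthesis, SGN-2FF is 2-fluorofucose, and P-SiaFNEtoc is a fluorinated sialic acid derivative that blocks sialyltransferases. The Fucotrims and SGN-2FF are called fucosylation inhibitors below by their intended target only. The Fucotrims have been reported to lower GDP-mannose as well, and fucosylation was not measured in these libraries. Because each inhibitor was given at a single and different dose, the values are set side by side and the inhibitors are not compared with each other.

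HNF4A and HNF4G are related nuclear receptors that bind the same DNA motif and help to keep the gene programmes of enterocytes and hepatocytes switched on. SPINK1 encodes a small secreted inhibitor that protects the pancreas from its own trypsin, and a subset of prostate cancers that lack ERG rearrangements express it at a high level. Genes of gastrointestinal epithelium are known to be active together in some castration-resistant prostate cancers, and the CWR22RV1 line is one of the models in which this has been studied.

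The libraries held 12553094 to 19981453 counts on genes. The share of those counts on mitochondrially encoded genes was 5.98 to 7.03% in DMSO, 8.67 to 14.2% with Fucotrim I, 12.2 and 17% with Fucotrim II, 8.27 to 8.69% with SGN-2FF and 6.11 to 6.83% with P-SiaFNEtoc. Fits without these genes called 6193 genes in place of 6209 with Fucotrim I and 7448 in place of 7511 with Fucotrim II. With SGN-2FF they called 2963 in place of 2946, and with P-SiaFNEtoc 2338 in place of 2331. Beyond this, the part of that share in the results below was not tested. Of all genes tested, 21.6%, 25.6%, 11.5% and 9.02% were called higher with Fucotrim I, Fucotrim II, SGN-2FF and P-SiaFNEtoc, and 22.1%, 25.7%, 9.08% and 7.33% lower. Among 10 markers of prostate luminal cells, 8 rose with Fucotrim I, 8 with Fucotrim II, 9 with SGN-2FF and 5 with P-SiaFNEtoc, and 0 fell (quasi-likelihood test of edgeR, Benjamini-Hochberg adjusted p under 0.05; limma-voom, DESeq2 and an unadjusted p under 0.05 also gave 0 lower). Their summed level was 2498 to 2546 CPM in DMSO (CPM, a gene's share of a library's counts rescaled so that libraries of different depth can be compared), 3440 to 3566 with Fucotrim I, 3253 and 3499 with Fucotrim II, 3159 to 3259 with SGN-2FF and 2808 to 2877 with P-SiaFNEtoc, and the part of these markers in the results below was not tested. Of 5 basal markers, KRT5, KRT14 and TP63 had at most 5 counts in any library, while KRT15 rose with Fucotrim I (0.78 on the log2 scale, adjusted p = 0.0445 from edgeR's test) and NGFR fell with P-SiaFNEtoc (-0.70, adjusted p = 0.0481). The KRT15 libraries overlapped DMSO, at 20 to 29 counts against 12 to 25. NGFR had 15 to 27 counts against 30 to 33 in DMSO. DESeq2's test called 0 basal markers with either inhibitor. With limma-voom 1 was higher with Fucotrim I and 0 were lower with P-SiaFNEtoc. Of 5 leukocyte markers, CD3E had 0 counts in every library and CD68 rose with SGN-2FF (0.46, adjusted p = 0.0165 from edgeR's test). For leukocyte markers higher with SGN-2FF, limma-voom gave 1 and DESeq2's test 0. Of 6 fibroblast markers, COL1A1 rose by 0.59 on the log2 scale with Fucotrim II (edgeR, adjusted p = 0.00185). Of 7 neuroendocrine markers, CHGA and INSM1 had at most 2 counts, and of the 3 that could be tested 2, 3, 1 and 1 rose with Fucotrim I, Fucotrim II, SGN-2FF and P-SiaFNEtoc. CHGB, which encodes a granin, rose with each of them, by 0.26, 0.68, 0.18 and 0.29 on the log2 scale, and its part in those results was not tested. By DESeq2's test the neuroendocrine markers called higher numbered 1, 3, 0 and 1, so CHGB was not called with SGN-2FF there. The summed levels of the 5 basal markers (at most 4.053 CPM), the 6 fibroblast markers (at most 33.38) and the 5 leukocyte markers (at most 8.863) were under those of the luminal markers in every group, while the 7 neuroendocrine markers, carried by ENO2, SYP and CHGB, summed to 375.2 to 390.4 CPM in DMSO and reached 505.1 CPM with Fucotrim II. In bulk RNA, fewer cells that express a gene and less RNA per cell cannot be told apart.

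Defining genes of gut and liver were present only in part. The intestinal master regulators CDX1 and CDX2 had 0 counts in every library, and the enterocyte genes ALPI, FABP2, KRT20 and GUCA2A had 0 throughout. In DMSO, ALB, which encodes serum albumin, had 165 ± 11.5 CPM (SD, n = 3), and the intestinal cadherin gene CDH17 had 4.12 ± 0.333 CPM (SD, n = 3).

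Levels of different genes are compared per kilobase of exons, which showed SPINK1 highest and HNF4A lowest in DMSO. SPINK1 was at 40.6 ± 0.333 CPM per kilobase (SD, n = 3), higher than 92.9% of the 14517 genes ranked. MUC13 (24.3 ± 2.09), TSPAN1 (19.7 ± 0.644) and KIF12 (19.1 ± 0.166) followed, higher than 86.8%, 83.3% and 82.8% of the ranked genes (SD, n = 3). VIL1 was at 10.7 ± 0.513 and HNF4G at 4.18 ± 0.151 CPM per kilobase (SD, n = 3), higher than 70.3% and 47.5% of the ranked genes. SLC26A3 (0.307 ± 0.0527) and HNF4A (0.0336 ± 0.00959) closed the order, with HNF4A above only 0.372% of the genes (SD, n = 3). The ranges of the 3 DMSO libraries did not overlap for any neighbours in this order, although TSPAN1 (lowest library 19.31) and KIF12 (highest library 19.25) lay almost together. With the length of the canonical transcript in place of the merged exons, an alternative chosen after seeing the data, the order was the same, but the libraries of MUC13 (27.92 to 32.47) and TSPAN1 (28.26 to 29.96) overlapped. SPINK1 was then at 134 CPM per kilobase, since its merged exons cover 1361 bases and its canonical transcript 413.

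**Figure D1:**
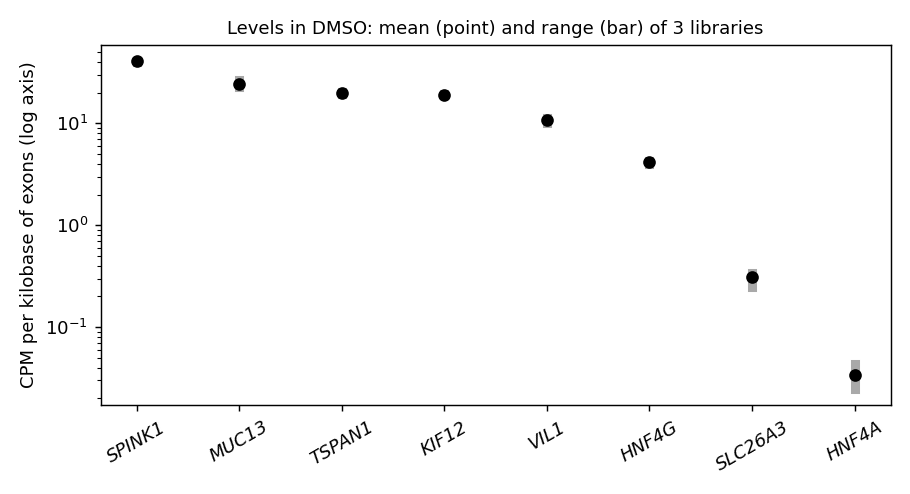
Levels of the 8 genes in DMSO in CPM per kilobase of merged exons, on a log axis, as the mean (point) and the range (bar) of 3 libraries. SPINK1 stands highest at 40.6, and HNF4A lowest at 0.0336.

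The promoters of SLC26A3 and MUC13 are shown because they are the ones that hold the core letters of an HNF4 site, and that of SPINK1 because it leads the order of levels and does not hold them. The sequences are the 250 bases before the start in RefSeq (GRCh38.p14), printed 5′ to 3′ on the strand of the gene, with the matched letters in capitals. The letters searched on both strands were CAAAGTC (reverse complement GACTTTG) as the core of an HNF4 site. They occurred in 2.91% of 35116 windows of the same length. Windows were found for 6 of the 8 genes, all but VIL1 and HNF4G.
SLC26A3: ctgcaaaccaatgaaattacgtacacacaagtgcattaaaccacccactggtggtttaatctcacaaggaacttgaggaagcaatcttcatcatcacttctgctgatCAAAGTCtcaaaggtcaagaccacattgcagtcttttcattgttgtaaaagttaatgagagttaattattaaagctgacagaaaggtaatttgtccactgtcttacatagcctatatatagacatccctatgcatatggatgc
MUC13: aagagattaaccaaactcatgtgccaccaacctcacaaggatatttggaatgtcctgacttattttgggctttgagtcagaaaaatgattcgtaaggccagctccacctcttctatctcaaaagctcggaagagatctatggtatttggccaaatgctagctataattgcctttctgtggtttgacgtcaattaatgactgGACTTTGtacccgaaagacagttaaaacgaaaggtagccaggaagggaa
SPINK1: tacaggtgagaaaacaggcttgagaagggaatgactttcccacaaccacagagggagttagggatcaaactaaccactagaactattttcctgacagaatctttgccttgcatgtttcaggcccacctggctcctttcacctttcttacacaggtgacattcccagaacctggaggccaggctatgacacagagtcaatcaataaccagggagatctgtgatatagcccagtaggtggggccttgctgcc
The SLC26A3 window (chr7:107803224-107803473, minus strand) held the HNF4 core 143 bases before the start, on the strand of the gene. In the MUC13 window (chr3:124934752-124935001, minus strand), which ends at a start inside the gene's annotated span, the HNF4 core lay 49 bases before the start, on the other strand. The SPINK1 window (chr5:147831672-147831921, minus strand) did not hold these letters, nor did those of TSPAN1, KIF12 and HNF4A. These matches describe letters and are not measured binding sites.

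HNF4A (NCBI gene 3172, hg38 chromosome 20 from 44355699 to 44432845) was close to the detection limit in every group. The DMSO libraries held 6, 8 and 4 counts, those of Fucotrim I 3, 3 and 0, of Fucotrim II 4 and 4, of SGN-2FF 4, 6 and 6, and of P-SiaFNEtoc 19, 11 and 14. The count of 0 in Fucotrim I replicate 3 allows up to 3 counts by counting error alone, or 0.239 CPM of the unscaled library total. The other CPM values are scaled by TMM, with a factor of 0.9518 for this library, which would raise this limit. It is therefore not set against the DMSO values. The gene passed the filter on low counts with P-SiaFNEtoc alone, through the libraries in which it was high. There it was at 0.83 ± 0.119 CPM (SD, n = 3) against 0.342 ± 0.0975 CPM in DMSO (SD, n = 3), and the P-SiaFNEtoc libraries lay above all DMSO libraries. The fitted log2 fold change was 1.26, with a standard error of 0.39, the widest of any member. With both Fucotrims every library lay below DMSO in CPM, and with SGN-2FF the libraries overlapped. The gap with Fucotrim II (0.2262 and 0.2406 CPM against 0.2506 in DMSO replicate 3) came from library size, since each of these libraries held 4 counts.

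HNF4G (NCBI gene 3174, hg38 chromosome 8 from 75407914 to 75566834) was the better expressed of the HNF4 receptors, and it was lower with both Fucotrims. Its libraries were at 20.7, 20.2 and 19.3 CPM in DMSO, 12.7, 13.2 and 10.8 with Fucotrim I, 12.2 and 9.84 with Fucotrim II, 16.7, 18.8 and 20.4 with SGN-2FF, and 21.2, 19.4 and 19.3 with P-SiaFNEtoc. The Fucotrim libraries lay entirely below those of DMSO, and the other inhibitors overlapped with it. On the log2 scale HNF4G differed from DMSO by -0.71 (standard error 0.10) with Fucotrim I, -0.87 (0.12) with Fucotrim II, -0.10 (0.08) with SGN-2FF and -0.001 (0.08) with P-SiaFNEtoc. With Fucotrim I and Fucotrim II these put HNF4G among the lowest 1.96% and 3.24% of the genes tested.

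SPINK1 (NCBI gene 6690, hg38 chromosome 5 from 147824572 to 147831671, minus strand) was higher with each of the 4 inhibitors. Its level was 55.0, 55.0 and 55.8 CPM in DMSO, 81.1, 82.2 and 85.9 with Fucotrim I, 136 and 146 with Fucotrim II, 86.4, 87.2 and 85.7 with SGN-2FF, and 81.9, 82.6 and 92.0 with P-SiaFNEtoc. All treated libraries lay above all DMSO libraries, which stayed between 54.97 and 55.77 CPM. SPINK1's log2 fold changes were 0.59 (standard error 0.06), 1.35 (0.06), 0.66 (0.05) and 0.63 (0.05) in that order, or 1.51-, 2.54-, 1.58- and 1.55-fold. They exceeded 92.5%, 97.7%, 97.5% and 98% of the log2 fold changes of the genes tested with each inhibitor.

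KIF12 (NCBI gene 113220, hg38 chromosome 9 from 114086126 to 114099292, minus strand), which encodes a kinesin motor of kidney and biliary epithelium, followed SPINK1 closely. It was at 58.1, 58.9 and 59.1 CPM in DMSO, 88.9, 85.5 and 97.6 with Fucotrim I, 145 and 131 with Fucotrim II, 109, 110 and 102 with SGN-2FF, and 92.8, 99.8 and 98.0 with P-SiaFNEtoc. Again no treated library reached down to the DMSO range. This gave log2 fold changes of 0.63 (standard error 0.06), 1.23 (0.07), 0.87 (0.05) and 0.72 (0.05).

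Likeness to SPINK1 was measured as the root mean square difference between the 4 log2 fold changes of a gene and those of SPINK1, over 14019 genes tested with all inhibitors. The nearest genes were KCNT1 (0.0732), a sodium-activated potassium channel gene, S100A6 (0.0946), a calcium-binding protein gene, and TEN1-CDK3 (0.097), a read-through locus whose reads the counting could have divided with TEN1 and CDK3. KIF12 came at rank 12 (0.133) and MUC13 at rank 83 (0.23), followed by TSPAN1 at rank 931 (0.443) and VIL1 at rank 3084 (0.658). SLC26A3 (rank 13584, 1.374) and HNF4G (rank 13587, 1.375) were among the least alike of the 14019 genes. All 4 comparisons share the DMSO libraries, so the measure gives a description without a p-value.

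MUC13 (NCBI gene 56667, hg38 chromosome 3 from 124905442 to 124953819, minus strand) encodes a transmembrane mucin of the intestinal surface. Its level was 93.5, 81.4 and 80.4 CPM in DMSO, 119, 111 and 125 with Fucotrim I, 171 and 174 with Fucotrim II, 117, 107 and 107 with SGN-2FF, and 118, 120 and 127 with P-SiaFNEtoc. The treated libraries were all above the highest DMSO library. For MUC13 the log2 fold changes were 0.48 (standard error 0.06), 1.02 (0.08), 0.38 (0.06) and 0.52 (0.05).

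TSPAN1 (NCBI gene 10103, hg38 chromosome 1 from 46175073 to 46185962) encodes a tetraspanin of epithelial membranes and had the largest fold change with each of the 4 inhibitors among the members other than HNF4A and SLC26A3. It was at 45.8, 46.0 and 48.5 CPM in DMSO, 108, 105 and 117 with Fucotrim I, 114 and 139 with Fucotrim II, 115, 108 and 98.8 with SGN-2FF, and 81.1, 84.3 and 90.8 with P-SiaFNEtoc. The lowest treated library was far above the highest DMSO library. The fitted log2 fold changes were 1.24 (standard error 0.06), 1.44 (0.09), 1.21 (0.06) and 0.87 (0.05), or 2.36-, 2.71-, 2.31- and 1.83-fold.

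SLC26A3 (NCBI gene 1811, hg38 chromosome 7 from 107765467 to 107803225, minus strand) encodes the chloride-bicarbonate exchanger of the colon surface, and it started from a very low level. The DMSO libraries held 21, 15 and 18 counts, those of Fucotrim I 105, 107 and 86, of Fucotrim II 114 and 101, of SGN-2FF 35, 50 and 53, and of P-SiaFNEtoc 30, 20 and 16. In CPM this was 1.04 ± 0.178 in DMSO (SD, n = 3), 7.32 ± 0.182 with Fucotrim I (SD, n = 3), 6.29 ± 0.809 with Fucotrim II (SD, n = 2), 3.22 ± 0.72 with SGN-2FF (SD, n = 3) and 1.24 ± 0.218 with P-SiaFNEtoc (SD, n = 3). All libraries of the 3 fucosylation inhibitors lay above DMSO, and those of P-SiaFNEtoc overlapped with it. Fitted log2 fold changes were 2.81 (standard error 0.19), 2.59 (0.22), 1.63 (0.24) and 0.28 (0.28), or 7.03-, 6-, 3.1- and 1.21-fold. With Fucotrim I, 99.98% of the genes tested had a smaller log2 fold change. The genes nearest to SLC26A3 by the same measure of likeness were TBATA (0.353), TGM2 (0.399) and PARP6 (0.521), and the nearest of the other members was TSPAN1 at rank 53.

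VIL1 (NCBI gene 7429, hg38 chromosome 2 from 218419121 to 218453295) encodes villin, which bundles the actin of microvilli. It was at 77.1, 70.0 and 74.3 CPM in DMSO, 88.9, 84.0 and 82.2 with Fucotrim I, 80.2 and 78.7 with Fucotrim II, 102, 97.9 and 102 with SGN-2FF, and 114, 117 and 113 with P-SiaFNEtoc. The treated libraries lay above DMSO with every inhibitor, by little with Fucotrim II. VIL1's log2 fold changes were 0.21 (standard error 0.06), 0.10 (0.07), 0.46 (0.05) and 0.64 (0.05), and that with Fucotrim II turned to -0.06 when libraries were scaled by total counts. Of the exon bases of VIL1, 44.2% overlap USP37 on the opposite strand, and whether the counting used strand is not given in the sources used here. USP37 itself had log2 fold changes of -0.29, -0.50, -0.14 and -0.17 (quasi-likelihood test of edgeR, adjusted p = 0.000479, 0.000436, 0.0469 and 0.0243). These were opposite in sign to those of VIL1 with Fucotrim I, SGN-2FF and P-SiaFNEtoc, while with Fucotrim II the sign of VIL1 depended on the scaling. Whether reads of USP37 entered the counts of VIL1 was not tested.

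**Figure D2:**
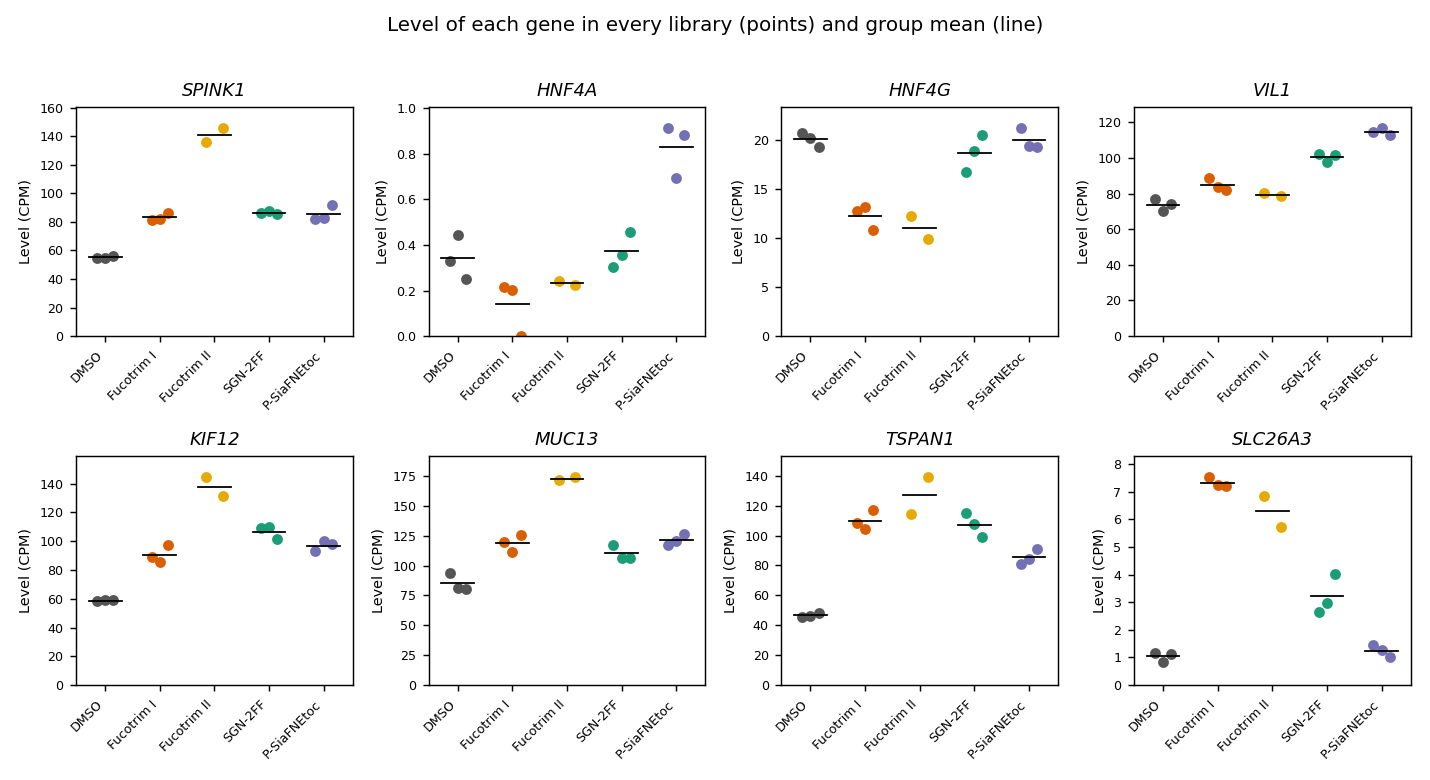
Level of each of the 8 genes in CPM (vertical axes, from 0) in every library of DMSO and the 4 inhibitors (points), with the mean of each group (line). SPINK1, KIF12, MUC13, TSPAN1 and VIL1 lie above DMSO in every treated library, HNF4G lies below it with both Fucotrims, and HNF4A stays under 1 CPM throughout.

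Across the 8 genes, 7 could be tested with Fucotrim I, 7 with Fucotrim II, 7 with SGN-2FF and 8 with P-SiaFNEtoc. HNF4A was the one tested with P-SiaFNEtoc alone. Of all genes tested, 43.8%, 51.4%, 20.6% and 16.3% passed an adjusted p under 0.05 with these inhibitors in either direction. The libraries lay entirely above DMSO for 6 members with each of the 4 inhibitors, and entirely below it for 2, 2, 0 and 0. Those below with the Fucotrims are HNF4G and HNF4A, and HNF4A was not among the genes tested there. Over all genes tested, libraries lay entirely above DMSO for 25.2%, 33.8%, 16.9% and 16.6% and entirely below it for 27.4%, 33.8%, 19.5% and 17.2%. The median log2 fold change of the members that could be tested was 0.59, 1.23, 0.66 and 0.64, against 0.00, 0.01, 0.00 and 0.00 over all genes tested, and nothing is read from these counts and medians because the members were chosen with them known.

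**Figure D3:**
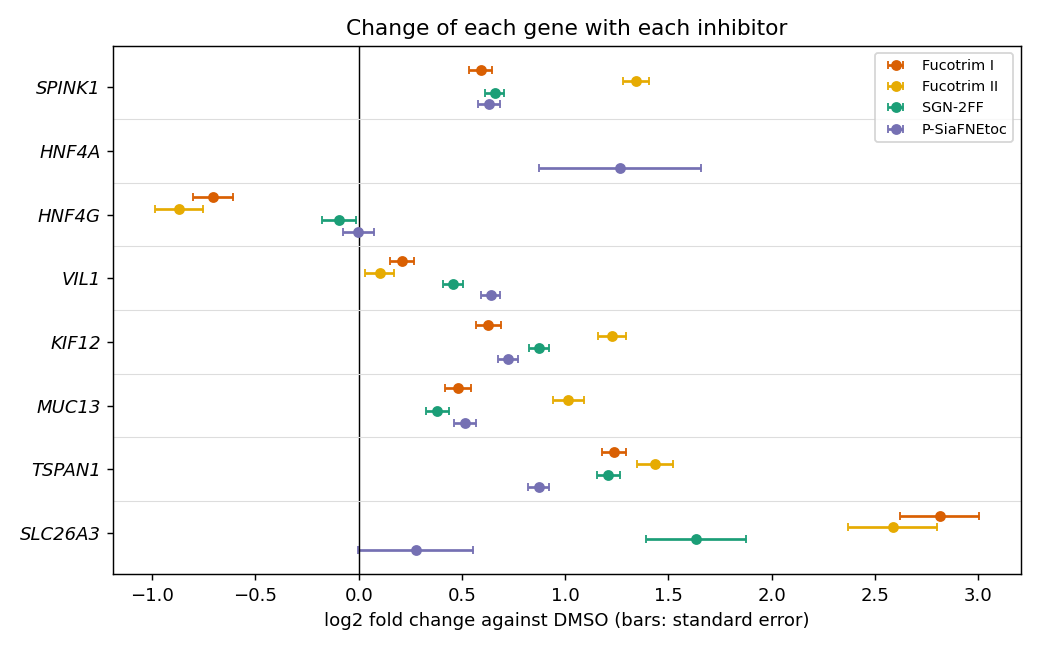
log2 fold change against DMSO (horizontal axis) of each gene with each inhibitor, with its standard error, from edgeR's fit of that inhibitor and DMSO. HNF4A is drawn for P-SiaFNEtoc alone, where it passed the filter on low counts, and SLC26A3 ranges from 0.28 to 2.81.

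The surrounding programme was followed with 104 further genes in 4 lists, of gut and liver transcription factors, brush border and enterocyte genes, mucins and secretory genes, and liver genes. These lists were drawn up with earlier results of these data known, so their counts are not independent support for the changes of the members. More of the list genes rose than fell with each inhibitor. With Fucotrim I 16 of the 39 that could be tested rose and 8 fell, with Fucotrim II 21 of 44 rose and 6 fell, with SGN-2FF 17 of 42 rose and 1 fell, and with P-SiaFNEtoc 19 of 42 rose and 0 fell (edgeR's quasi-likelihood test, Benjamini-Hochberg adjusted p under 0.05). Of all genes tested, 21.6% were called higher and 22.1% lower with Fucotrim I, 25.6% and 25.7% with Fucotrim II, 11.5% and 9.08% with SGN-2FF, and 9.02% and 7.33% with P-SiaFNEtoc. The median log2 fold change of the tested list genes was 0.31, 0.53, 0.35 and 0.43, against 0.00, 0.01, 0.00 and 0.00 over all genes tested. By DESeq2's test the genes called higher with SGN-2FF numbered 11 in place of 17. For the count of 0 lower with P-SiaFNEtoc, limma-voom and DESeq2 also gave 0, and 1 list gene was lower at an unadjusted p under 0.05. Genes with low counts pass the filter more easily where they are high, and the counts over tested genes carry that limit.

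**Figure D4:**
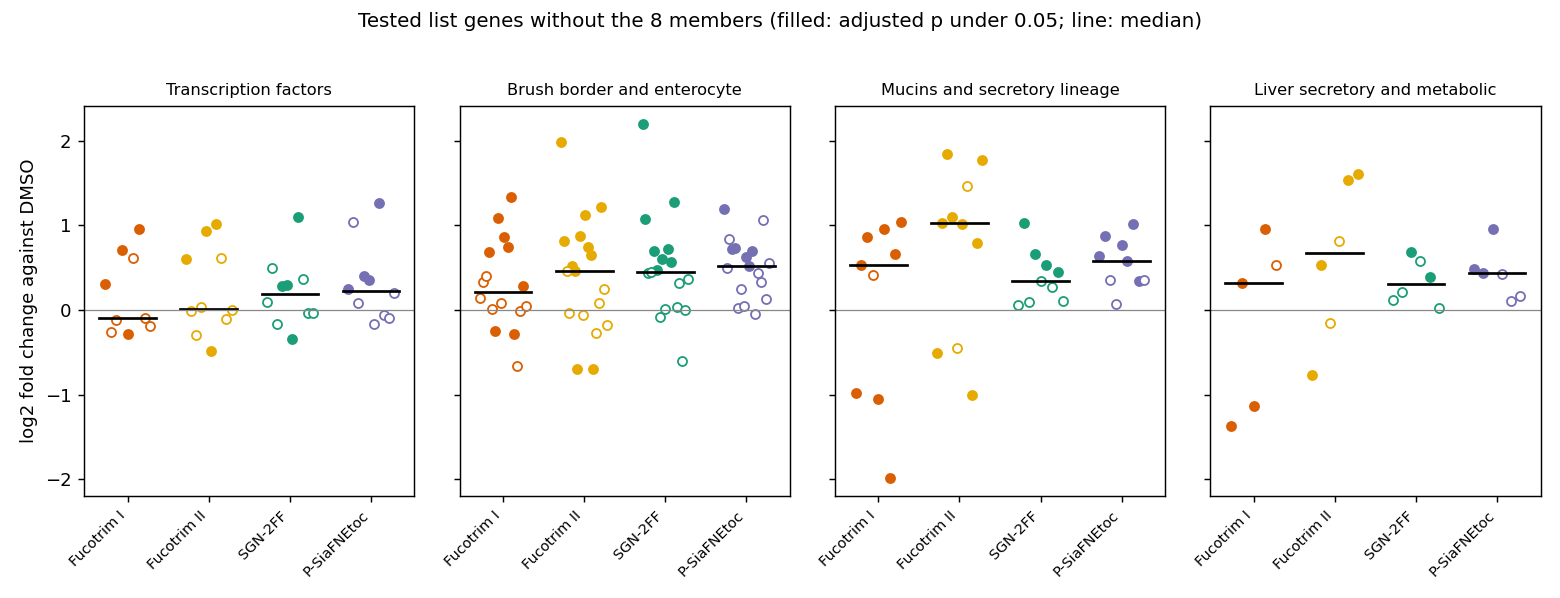
log2 fold change against DMSO (vertical axis) of the tested genes of the 4 lists, without the 8 members, for each inhibitor. Filled points passed an adjusted p under 0.05, open points did not, and the line is the median of the tested genes. All but 1 of the called genes lie above 0 with SGN-2FF and all of them with P-SiaFNEtoc, and the Fucotrims have called genes on both sides.

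Among the transcription factors, 3 of 9 tested rose and 1 fell with Fucotrim I, 3 and 1 of 10 with Fucotrim II, 3 and 1 of 10 with SGN-2FF, and 4 and 0 of 10 with P-SiaFNEtoc. Higher were thus 33.3%, 30%, 30% and 40%, against 21.6%, 25.6%, 11.5% and 9.02% of all genes tested. Lower were 11.1%, 10%, 10% and 0%, against 22.1%, 25.7%, 9.08% and 7.33%. With Fucotrim II the share higher was near that of all genes. The median log2 fold change of the tested factors was -0.09, 0.016, 0.189 and 0.225. KLF4, a factor of differentiated epithelium with a DMSO level of 40.9 ± 2.79 CPM (SD, n = 3), rose with all 4 inhibitors, by 0.72, 0.94, 0.29 and 0.36 on the log2 scale. Its relative KLF5, which is linked to dividing crypt cells, fell by 0.29 with Fucotrim I, by 0.49 with Fucotrim II and by 0.34 with SGN-2FF and was at -0.17 with P-SiaFNEtoc (adjusted p = 0.0556 from edgeR's test). ELF3, an epithelial ETS factor, rose with Fucotrim I (0.31), Fucotrim II (0.61) and P-SiaFNEtoc (0.25) and was at 0.09 with SGN-2FF (adjusted p = 0.193 from edgeR's test).

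The brush border and enterocyte genes rose in 6, 9, 8 and 6 cases of 16, 18, 17 and 17 tested, in the order Fucotrim I, Fucotrim II, SGN-2FF and P-SiaFNEtoc, and fell in 2, 2, 0 and 0. Higher were thus 37.5%, 50%, 47.1% and 35.3%, against 21.6%, 25.6%, 11.5% and 9.02% of all genes tested. Lower were 12.5%, 11.1%, 0% and 0%, against 22.1%, 25.7%, 9.08% and 7.33%. LGALS4, which encodes a galectin of the gut lining, rose with every inhibitor, by 0.87, 1.13, 0.72 and 0.63 on the log2 scale, of which the call with P-SiaFNEtoc was lost without DMSO replicate 1 (0.49) or P-SiaFNEtoc replicate 2 (0.50). ESPN, an actin bundler like villin, rose by 1.09, 0.88 and 0.61 with the fucosylation inhibitors, while its log2 fold change with P-SiaFNEtoc was 0.25 (adjusted p = 0.251 from edgeR's test). CDH17 was at 4.55 ± 0.453 CPM with Fucotrim I (SD, n = 3), where the libraries overlapped DMSO, at 7.29 ± 1.6 with Fucotrim II (SD, n = 2), and at 8.68 ± 0.899 with SGN-2FF (SD, n = 3) and 9.41 ± 0.748 with P-SiaFNEtoc (SD, n = 3), log2 fold changes of 0.14, 0.81, 1.08 and 1.20, of which the last 3 passed the test. The peptidase gene DPP4 rose by 0.46, 0.48 and 0.74 with Fucotrim II, SGN-2FF and P-SiaFNEtoc. PLS1 and EPS8, which encode further actin-binding proteins of microvilli, fell with Fucotrim I (-0.29 and -0.25) and Fucotrim II (-0.70 and -0.69).

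Mucins and secretory genes rose in 5, 6, 4 and 6 cases of 9, 10, 9 and 9 tested and fell in 3, 2, 0 and 0. Higher were thus 55.6%, 60%, 44.4% and 66.7%, against 21.6%, 25.6%, 11.5% and 9.02% of all genes tested. Lower were 33.3%, 20%, 0% and 0%, against 22.1%, 25.7%, 9.08% and 7.33%. FCGBP, a mucus protein gene, rose with Fucotrim I (0.87) and Fucotrim II (1.85), and MUC5AC, a gel-forming mucin gene with similar neighbours whose reads the counting could have split, rose by 0.95, 1.02, 0.53 and 0.58. The MUC5AC call was lost without SGN-2FF replicate 2 (0.49) and without P-SiaFNEtoc replicate 1 (0.49) in those comparisons. CREB3L1, a transcription factor of secretory cells, rose by 0.54, 1.03, 1.03 and 0.87. AGR2, a disulfide isomerase needed for mucin folding, went the other way with the Fucotrims. It was at 24.8 ± 0.0851 CPM in DMSO (SD, n = 3), 12.5 ± 0.312 with Fucotrim I (SD, n = 3), 17.5 ± 0.807 with Fucotrim II (SD, n = 2), 25.8 ± 1.58 with SGN-2FF (SD, n = 3) and 38.6 ± 1.48 with P-SiaFNEtoc (SD, n = 3). The log2 fold changes of AGR2 were -0.99, -0.51, 0.06 and 0.64, and all but the one with SGN-2FF passed edgeR's test (adjusted p = 1.84e-08, 0.000923, 0.571 and 9.52e-09). REG4, a secreted lectin of enteroendocrine and goblet cells, had the same order of signs, at -1.99, -1.01, 0.28 and 1.02, and its value with SGN-2FF did not pass (adjusted p = 0.228).

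Only 5, 6, 6 and 6 of 24 liver genes could be tested, of which 2, 3, 2 and 3 rose and 2, 1, 0 and 0 fell. Higher were thus 40%, 50%, 33.3% and 50%, against 21.6%, 25.6%, 11.5% and 9.02% of all genes tested. Lower were 40%, 16.7%, 0% and 0%, against 22.1%, 25.7%, 9.08% and 7.33%. ALB was at 63.4 ± 12.3 CPM with Fucotrim I (SD, n = 3), 97 ± 4.93 with Fucotrim II (SD, n = 2), 177 ± 13.1 with SGN-2FF (SD, n = 3) and 230 ± 1.5 with P-SiaFNEtoc (SD, n = 3). Its log2 fold changes were -1.38, -0.77, 0.12 and 0.48 (adjusted p = 0.000277, 6.08e-05, 0.135 and 2.62e-09 from edgeR's test). MLXIPL, which encodes the glucose-responsive factor ChREBP, rose by 0.96, 1.54 and 0.39 with the fucosylation inhibitors. AMBP, a plasma protein gene, rose by 0.33 and 0.53 with the Fucotrims and by 0.44 with P-SiaFNEtoc. Among these calls, that of AMBP with Fucotrim I was lost without DMSO replicate 3 (0.27) or Fucotrim I replicate 1 (0.27), and that of MLXIPL with SGN-2FF without DMSO replicate 1 (0.27) or SGN-2FF replicate 2 (0.28). By DESeq2's test 0 liver genes were called higher with SGN-2FF, so MLXIPL was not called there either. AGR2, REG4 and ALB were thus lower with the Fucotrims and higher with P-SiaFNEtoc against the same DMSO libraries, and the difference between inhibitors was not tested because the doses differ.

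**Figure D5:**
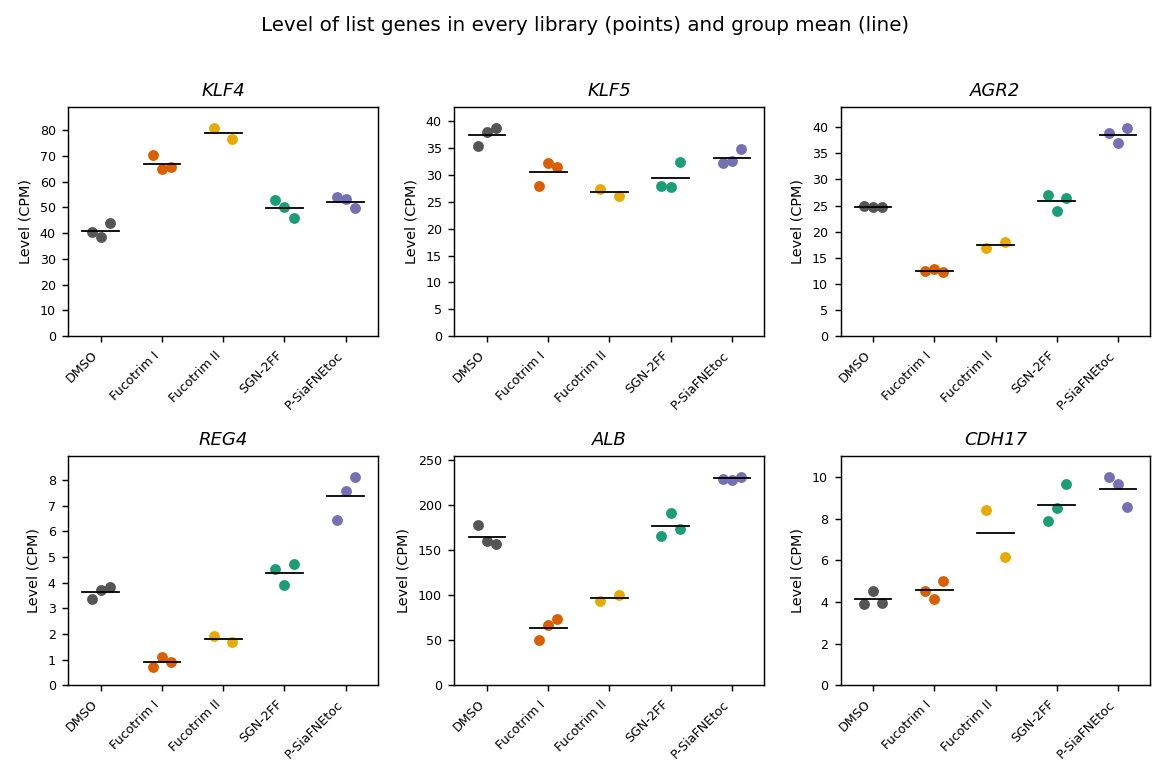
Level in CPM (vertical axes, from 0) of 6 genes of the lists, chosen after their values were seen, in every library (points) with the mean of each group (line). AGR2, REG4 and ALB lie below DMSO in all Fucotrim libraries and above it in all P-SiaFNEtoc libraries, and CDH17 overlaps DMSO with Fucotrim I and lies above it in the other groups.

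Relatives of the members were followed in 3 family lists. Of all genes tested, 21.6%, 25.6%, 11.5% and 9.02% were called higher with Fucotrim I, Fucotrim II, SGN-2FF and P-SiaFNEtoc. The shares called lower were 22.1%, 25.7%, 9.08% and 7.33%. Of the 18 trypsins, membrane serine proteases and inhibitors beside SPINK1, 5 of 12 tested rose with Fucotrim I, 7 of 11 with Fucotrim II, 6 of 12 with SGN-2FF and 7 of 11 with P-SiaFNEtoc, and 0 fell by edgeR, limma-voom or DESeq2 or at an unadjusted p under 0.05. HPN, which encodes the membrane protease hepsin, rose by 0.77, 1.34, 0.38 and 0.30 on the log2 scale, and the related protease gene PRSS8 by 0.28, 0.97, 0.41 and 0.28. With Fucotrim I the PRSS8 call was lost without DMSO replicate 1 (0.27), DMSO replicate 2 (0.25) or Fucotrim I replicate 3 (0.22), and with P-SiaFNEtoc without DMSO replicate 1 (0.27), DMSO replicate 2 (0.24), P-SiaFNEtoc replicate 2 (0.29) or P-SiaFNEtoc replicate 3 (0.23). SPINK5, an inhibitor of skin proteases, rose by 0.43, 0.88 and 0.58 with the fucosylation inhibitors, of which the call with Fucotrim I was lost without DMSO replicate 1 (0.38), DMSO replicate 3 (0.30), Fucotrim I replicate 2 (0.32) or Fucotrim I replicate 3 (0.46).

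Among 15 SLC26 anion exchangers and apical partners beside SLC26A3, 10 could be tested with each inhibitor, of which 5, 2, 1 and 0 rose and 1, 1, 0 and 0 fell (edgeR). The shares called higher were 50%, 20%, 10% and 0%, against 21.6%, 25.6%, 11.5% and 9.02% of all genes tested. Except with Fucotrim I, they did not exceed the share of all genes. DESeq2's test gave 2, 2, 1 and 0 higher, and at an unadjusted p under 0.05 with P-SiaFNEtoc 1 was higher and 1 lower (limma-voom called 0 higher and 1 lower). With SGN-2FF 1 was lower at an unadjusted p under 0.05, and limma-voom and DESeq2 gave 0. SLC26A6, an exchanger of chloride, bicarbonate and oxalate, rose by 0.45, 0.99 and 0.21 with the fucosylation inhibitors, from 56.3 ± 2.74 CPM in DMSO (SD, n = 3). The SLC26A6 call with SGN-2FF was lost without DMSO replicate 1 (0.17) or SGN-2FF replicate 2 (0.17). SLC26A1 rose with Fucotrim I (0.32, but 0.25 and not called without DMSO replicate 1), SLC26A11 rose with Fucotrim II (0.57) and Fucotrim I (0.20, not called without DMSO replicate 1 or 3 or Fucotrim I replicate 1 or 3, at 0.16, 0.19, 0.17 and 0.18), and SLC26A10, a pseudogene in current annotation, fell with both (-0.70 and -0.80).

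Of 24 tetraspanin genes beside TSPAN1, 22 could be tested, 5, 7, 5 and 7 rose and 1, 0, 2 and 0 fell (edgeR). The shares called higher were 22.7%, 31.8%, 22.7% and 31.8%, against 21.6%, 25.6%, 11.5% and 9.02% of all genes tested. With Fucotrim I the share of tetraspanins was thus near that of all genes. With Fucotrim II and P-SiaFNEtoc, limma-voom, DESeq2 and an unadjusted p under 0.05 also gave 0 lower. TSPAN8, a tetraspanin of gut epithelium, had 139 ± 2.69 CPM in DMSO (SD, n = 3) and rose with SGN-2FF (0.47, standard error 0.04), P-SiaFNEtoc (0.48, 0.04) and Fucotrim II (0.23, 0.07), while with Fucotrim I it fell by 0.16. TSPAN4 rose by 0.53, 0.82, 0.36 and 0.28, and CD82, known as a metastasis suppressor, by 0.56 and 0.69 with the Fucotrims. TSPAN15 rose with P-SiaFNEtoc (0.41) and Fucotrim I (0.20, not called without DMSO replicate 2 or 3 or Fucotrim I replicate 3, at 0.17, 0.19 and 0.19), and TSPAN5 (-0.76) and TSPAN33 (-0.35) fell with SGN-2FF, the latter not without DMSO replicate 2 (-0.28) or SGN-2FF replicate 2 (-0.36). With Fucotrim I the TSPAN8 call was lost without DMSO replicate 1 (-0.15) or Fucotrim I replicate 3 (-0.14). With Fucotrim II it was lost without any one of the 3 DMSO replicates (0.20 to 0.23) and without Fucotrim II replicate 1 (0.13).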

How the data were processed

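RNA was sequenced from 14 libraries of CWR22RV1 cells. The authors prepared stranded mRNA libraries, used Cutadapt for trimming, HISAT2 for alignment to hg38 and featureCounts for counting, all in Galaxy, and they deposited whole-number counts without normalization in 4 tables, each with the same DMSO libraries. The annotation release, the strand setting and versions of these tools are not given in the sources used here. For SGN-2FF, 549 rows stayed without a symbol. The members and lists were chosen with earlier results of these data known.

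Each inhibitor was fitted alone with DMSO in edgeR 4.0.16 (R 4.3.3): filterByExpr (minimum count 10, minimum total 15), TMM scaling, the robust quasi-likelihood test, and Benjamini-Hochberg adjustment over all genes tested. The method was run on simulated counts with 200 changed genes and the same dispersion of 0.005 for every gene. The spread between replicates differs between the groups, so the simulation does not show how the test performs on these data. CPM values other than the limit for HNF4A use 1 TMM scaling of all 14 libraries, so a ratio of mean CPM can differ slightly from the fitted fold change. Standard errors come from the fold change and its F statistic. Exon lengths and overlaps come from GENCODE 44, promoters from RefSeq.

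Some genes of the lists, counted within them, are not reported here. Named genes are the 8 members, the genes nearest to SPINK1 and SLC26A3 (3 each) and, per list and inhibitor, up to 2 of the largest rises and 2 of the largest falls of called genes with libraries that do not overlap DMSO and at least 50 counts on average. Markers, USP37 and genes at 0 counts were named beside the rule. The labels call the replicates biological repeats, and where cultures were shared the p-values measure the spread between libraries only. Intervals and floors cover counting error only. Alternatives were limma-voom 3.58.1, DESeq2 1.42.0 (test and size factors), scaling by total counts, the replicate block, no filter, at least 10 counts in every library, 1 fit of 14 libraries, removal of 37 mitochondrially encoded genes, leaving out each library, and an adjusted p under 0.01.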

Additional observations from a re-analysis of the deposited data

How the results depend on the processing

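Of 128 counts of called list genes recomputed under the alternatives, 123 stayed within 1.5 times the reported count. The exceptions were the list genes higher with SGN-2FF, 11 by DESeq2's test in place of 17, and the list genes lower with P-SiaFNEtoc, 1 in place of 0 with the replicate block and 1 with scaling by total counts. When each library was left out in turn, that last count ranged from 0 to 1, with 1 without DMSO replicate 1 and 1 without P-SiaFNEtoc replicate 3. The counts of list genes called higher then ranged from 14 to 16 with Fucotrim I, 16 to 22 with Fucotrim II, 13 to 17 with SGN-2FF and 18 to 20 with P-SiaFNEtoc. Within single lists, by DESeq2's test the protease and inhibitor genes called higher were 3 in place of 5 with Fucotrim I and 4 in place of 7 with P-SiaFNEtoc, the brush border genes 6 in place of 9 with Fucotrim II, the mucin and secretory genes 2 in place of 4 and the liver genes 0 in place of 2 with SGN-2FF. The cause was not tested. Of 434 recomputed log2 fold changes of the members, 415 moved by less than 1 SD between replicates. Scaling by total counts shifted the median of all genes by -0.07 with Fucotrim I, -0.15 with Fucotrim II, -0.03 with SGN-2FF and -0.01 with P-SiaFNEtoc, and under it VIL1 with Fucotrim II was at -0.06. No called value reversed. Of 1424 recomputed log2 fold changes of other named genes, 73 lost the threshold, among them those of AMBP (0.27 without DMSO replicate 3), PRSS8 (0.22 without Fucotrim I replicate 3), SLC26A1 (0.25 without DMSO replicate 1), SLC26A11, SPINK5 and TSPAN15 with Fucotrim I, DPP4 (0.44 with the replicate block of the titles) and TSPAN8 with Fucotrim II, MLXIPL, MUC5AC, SLC26A6 and TSPAN33 with SGN-2FF, and LGALS4, MUC5AC and PRSS8 with P-SiaFNEtoc.

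Same-numbered libraries did not deviate together throughout (r of 0.151, 0.135 and 0.0208 with Fucotrim I, and between -0.0679 and 0.0655 with SGN-2FF and P-SiaFNEtoc). Deviations from the mean of so few libraries are forced to cancel, so these values cannot decide whether same-numbered libraries shared a culture. For Fucotrim II the titles and the library descriptions give different numbers, with r of -0.167 and -0.23 by title and 0.23 and 0.0649 by description. With the replicate block the genes called went from 6209 to 7288 with Fucotrim I, from 7511 to 5300 (titles) or 7779 (descriptions) with Fucotrim II, from 2946 to 2868 with SGN-2FF and from 2331 to 2674 with P-SiaFNEtoc.

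Depth limits HNF4A most, with at most 19 counts in a library, and SLC26A3 in DMSO, with at most 21. Fucotrim II has 2 libraries.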

Other observations

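Some list genes outside the rule for named genes, picked after their values were seen, also moved. SPDEF, a transcription factor of goblet and prostate luminal cells, had 244 ± 16.2 CPM in DMSO (SD, n = 3) and rose with each inhibitor, by 0.66 with Fucotrim I, 0.80 with Fucotrim II, 0.45 with SGN-2FF and 0.34 with P-SiaFNEtoc on the log2 scale. MYO1A, the brush border myosin gene, rose by 0.75, 0.74, 0.57 and 0.52 in the same order, and CEACAM6, an adhesion molecule gene with close relatives, by 0.69, 0.52, 0.70 and 0.72. PHGR1, a small gene of the colon surface, rose by 1.33, 0.66, 1.27 and 0.69 from 29 to 33 counts in the DMSO libraries. NR1H4, which encodes the bile acid receptor FXR, rose with Fucotrim II (1.01), SGN-2FF (1.10) and P-SiaFNEtoc (1.27), from 6 to 15 counts in DMSO. APOH, an apolipoprotein gene of the liver, was at -1.14 with Fucotrim I, 0.68 with SGN-2FF and 0.96 with P-SiaFNEtoc, all past the threshold (edgeR's quasi-likelihood test, adjusted p = 0.0177, 0.0383 and 0.00321), on at most 49 counts in any of these libraries. With Fucotrim II APOH was at -0.16 and did not pass (edgeR, adjusted p = 0.649). By DESeq2's test 0 liver genes were called higher with SGN-2FF, in place of 2 by edgeR. For liver genes lower with Fucotrim I, DESeq2 gave 1 in place of 2, and with P-SiaFNEtoc both tests called 3 higher. Single genes of this paragraph were not followed through the alternatives.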
